A study of Homo sapiens with 3 samples.

Results

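The microRNAs miR-192, miR-194 and miR-215 were examined in 3 strains of the human hepatocellular carcinoma (HCC) cell line HCCLM3. Every listed name of these 3 miRNAs was taken, whichever hairpin arm it comes from, which gave 5 names of the 1921 in the tables: hsa-miR-192-5p, hsa-miR-192-3p, hsa-miR-194-5p, hsa-miR-194-3p and hsa-miR-215. All 5 were detected in all libraries. The parent strain is labelled as having low metastasis, although the study describes its parental line, HCCLM3 cells that express a red fluorescent protein, as highly metastatic. The label of subclone1 gives metastasis specific to the lung, while that of subclone2 gives a dual ability for lung and celiac lymph node. No treatment or time point is given, all strains were grown in DMEM, and the labels do not say how the subclones were derived. The study describes lines grown from single cells and also descendants that were not cloned in this way, and which of them subclone1 and subclone2 are is not given in the sources used here. Each strain had 1 small RNA library, and no difference given here has a replicate check.

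A miRNA is cut from a hairpin precursor, and either arm of the hairpin (5p or 3p) can become the mature strand. Bases 2 to 8 of the mature strand, the seed, largely decide which mRNAs it represses, so miRNAs with 1 seed have overlapping targets. The genes of this family lie as pairs at separate places in the genome, each pair holding a copy of miR-194. The family is known for its high level in liver, intestine and kidney epithelium, for induction by the tumour suppressor p53, and for repression of ZEB2, a factor of epithelial-mesenchymal transition. These are background facts and were not measured here.

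The mature sequences are shown first, since they decide which members can share targets and which can share reads. They are from RefSeq (GRCh38.p14), 5′ to 3′, with the seed in capitals. The tables list hsa-miR-215 without an arm. It was matched to the 5p strand of RefSeq, which older releases of miRBase named without a suffix.
hsa-miR-192-5p: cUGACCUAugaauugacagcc
hsa-miR-215: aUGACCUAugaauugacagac
hsa-miR-194-5p: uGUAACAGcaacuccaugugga
hsa-miR-194-3p: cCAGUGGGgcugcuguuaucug
hsa-miR-192-3p: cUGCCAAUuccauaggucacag

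The strands hsa-miR-215 and hsa-miR-192-5p carry the same seed, UGACCUA. Among 2370 mature names in the RefSeq table, these were the 2 that hold it. Their 21 bases differ at 2 places, C1A and C20A, where the base of hsa-miR-192-5p comes first and positions count from 1 at the 5′ end. They share 18 consecutive bases, so a read trimmed at both ends could come from either. hsa-miR-194-5p has another seed, GUAACAG, which no other name in the table carries. The seeds of the 3p strands were likewise found in 1 name each.

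The hairpins show which strands point to which locus. They are given 5′ to 3′ on the minus strand, with the annotated mature strands in capitals.
MIR192, chr11:64891137-64891246: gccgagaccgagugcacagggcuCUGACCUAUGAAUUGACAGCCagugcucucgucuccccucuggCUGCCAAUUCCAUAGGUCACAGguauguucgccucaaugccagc
MIR194-2, chr11:64891355-64891439: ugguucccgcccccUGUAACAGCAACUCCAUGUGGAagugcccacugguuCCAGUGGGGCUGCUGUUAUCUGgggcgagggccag
MIR194-1, chr1:220118157-220118241: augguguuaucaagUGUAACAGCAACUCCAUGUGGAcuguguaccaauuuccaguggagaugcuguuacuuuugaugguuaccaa
MIR215, chr1:220117853-220117962: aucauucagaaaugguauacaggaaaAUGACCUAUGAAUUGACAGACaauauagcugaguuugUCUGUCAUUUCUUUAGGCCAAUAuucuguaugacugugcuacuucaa

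MIR192 and MIR194-2 are 108 bases apart and both lie within exons of the long non-coding RNA gene MIR194-2HG. MIR215 and MIR194-1 are 194 bases apart and lie in an intron of IARS2, which encodes a mitochondrial isoleucyl-tRNA synthetase, but on the opposite strand. The copies of the miR-194 hairpin were identical at 50 of 85 aligned bases, yet both hold the whole of hsa-miR-194-5p. The counts of hsa-miR-194-5p therefore cannot be divided between chromosomes 1 and 11. RefSeq gives hsa-miR-194-3p from MIR194-2 alone. Thus hsa-miR-192-5p, hsa-miR-192-3p and hsa-miR-194-3p stand for the pair on chromosome 11, and hsa-miR-215 for the pair on chromosome 1.

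Summed over all names, the libraries held 7902438 counts for the parent, 3570864 for subclone1 and 4568075 for subclone2. Levels are given as CPM, counts scaled to 1000000 per library, with exact 95% binomial intervals (Clopper-Pearson). The reads have no molecular identifiers in these tables, so every interval covers counting error only. Ligation during library preparation favours some ends over others, and levels or ratios of different miRNAs within a library carry this bias. The hepatocyte-defining hsa-miR-122-5p was low, with 53 counts (6.71 CPM) in parent cells, 19 (5.32 CPM) in subclone1 and 18 (3.94 CPM) in subclone2.

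hsa-miR-192-5p, the strand that carries nearly all counts of the family, had 146413 counts in parent cells, 215131 in subclone1 and 315506 in subclone2. Its level was 18528 CPM (interval 18434 to 18622), 60246 CPM (59999.6 to 60494) and 69068 CPM (68835 to 69300.5), respectively. It ranked 12 in parent cells, 5 in subclone1 and 4 in subclone2 among all names. In the parent it stood just below hsa-miR-29a-3p (18711 CPM), whereas in subclone2 it stood above hsa-miR-222-3p (53756 CPM) and below hsa-let-7b-5p (83620 CPM). The parent was the lowest of the libraries, and none of the intervals overlapped.

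hsa-miR-194-5p, the strand made at both loci, had 853 counts in parent cells, 967 in subclone1 and 1201 in subclone2. These corresponded to 108 CPM (101 to 115), 271 CPM (254 to 288) and 263 CPM (248 to 278). Both subclones lay above the parent and their intervals overlapped each other. Its rank was 87 in parent cells, 60 in subclone1 and 57 in subclone2. At those depths the neighbouring names in rank were close, such as hsa-miR-151a-5p with 977 counts and hsa-miR-22-3p with 965 in subclone1.

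hsa-miR-215, the seed partner of hsa-miR-192-5p from chromosome 1, had 172 counts in parent cells, 211 in subclone1 and 627 in subclone2. Its level was 21.8 CPM (18.6 to 25.3) in parent cells, 59.1 CPM (51.4 to 67.6) for subclone1 and 137 CPM (127 to 148) for subclone2. The libraries stood in this order without overlap of intervals, and its rank moved from 147 to 104 and 78.

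The strands from the opposite arms were rare. hsa-miR-194-3p had 37 counts in parent cells, 27 in subclone1 and 57 in subclone2. These corresponded to 4.68 CPM (3.30 to 6.45), 7.56 CPM (4.98 to 11.0) and 12.5 CPM (9.45 to 16.2). The intervals of the parent and subclone2 were apart, and that of subclone1 overlapped both. hsa-miR-192-3p had 5, 5 and 7 counts. No difference between libraries was detectable for hsa-miR-192-3p at this depth, with levels from 0.633 CPM (0.205 to 1.48) in the parent to 1.53 CPM (0.616 to 3.16) in subclone2.

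**Figure D1:**
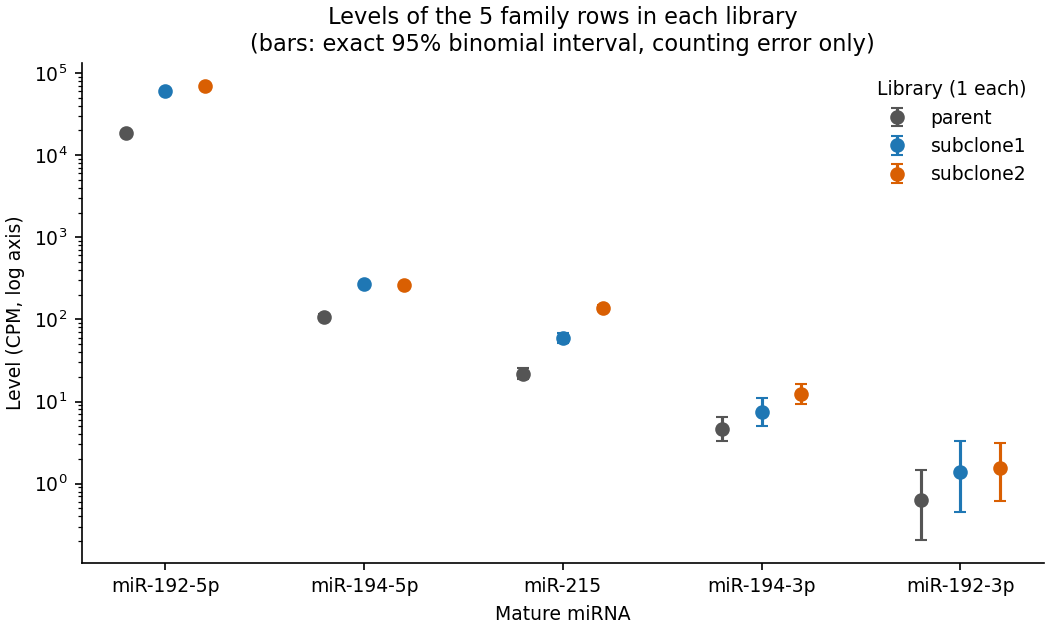
Level of each mature strand in the parent, subclone1 and subclone2 libraries, in CPM on a log axis. Points are single libraries and bars are exact 95% binomial intervals for counting error. hsa-miR-192-5p lies between 18528 and 69068 CPM, the other strands at 271 CPM or less, and the parent is the lowest point of each strand.

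The 5 names together held 1.87% of all counts in parent cells (interval 1.86 to 1.88), against 6.06% in subclone1 (6.03 to 6.08) and 6.95% in subclone2 (6.92 to 6.97). hsa-miR-192-5p made up 99.3%, 99.4% and 99.4% of these counts. Within the seed shared by the strands from MIR192 and MIR215, hsa-miR-215 supplied 0.117% of counts in parent cells, 0.0980% in subclone1 and 0.198% in subclone2. The total of this seed was therefore set by hsa-miR-192-5p in every library.

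To ask which members differed in the strain with lung tropism, subclone1 was compared with the parent. With 1 library per group no test was possible, so a miRNA was called higher or lower by size alone, when libraries differed 2-fold or more and the exact 95% interval of the ratio, binomial and conditional on the summed count, left out 1. Only miRNAs whose mean level in the pair of libraries reached 10 CPM were considered. The 3 family names that passed this minimum, hsa-miR-192-5p, hsa-miR-194-5p and hsa-miR-215, were all called higher, compared with 9.90% of all 192 miRNAs that passed it. The fold was 3.25 for hsa-miR-192-5p (interval 3.23 to 3.27), 2.51 for hsa-miR-194-5p (2.29 to 2.75) and 2.71 for hsa-miR-215 (2.21 to 3.34). From the highest ratio down, they took places 6, 11 and 9. Below the minimum level, hsa-miR-194-3p had a ratio of 1.62 with an interval of 0.946 to 2.73 that included 1.

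In the strain with dual tropism, subclone2, the same 3 names were called higher than in the parent, against 5.88% of 187 miRNAs. The parent library is shared with the comparison above, so the pair of results is not independent. hsa-miR-215 was 6.29-fold higher (interval 5.32 to 7.51), the largest ratio of all 187. hsa-miR-192-5p was 3.73-fold higher (3.70 to 3.75), in place 5, and hsa-miR-194-5p was 2.44-fold higher (2.23 to 2.66), in place 8. hsa-miR-194-3p, with a mean of 8.58 CPM, fell short of the minimum level. Its ratio was 2.65 (1.73 to 4.15), which overlapped the interval of hsa-miR-194-5p.

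The median log2 ratio of the miRNAs considered was 0.02 in subclone1 and -0.15 in subclone2, and TMM scaling moved the latter by 0.17. Relative to these medians, the log2 ratios in subclone1 were 1.68 for hsa-miR-192-5p, 1.31 for hsa-miR-194-5p and 1.42 for hsa-miR-215. The corresponding values in subclone2 were 2.05, 1.44 and 2.81.

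Next, subclone2, labelled with dual tropism, was set against subclone1, labelled with lung tropism. With 1 strain for each label, tropism cannot be told apart from other differences between strains, here or in the contrasts above. Here the members parted. hsa-miR-215 was 2.32-fold higher in subclone2 (interval 1.98 to 2.73), the largest ratio of 191 miRNAs, and was the 1 family name called higher among the 4 considered, against 1.57% of all. hsa-miR-192-5p differed by 1.15-fold (1.14 to 1.15), under the 2-fold threshold. hsa-miR-194-5p had a ratio of 0.971 (0.891 to 1.06), and its interval included 1. hsa-miR-194-3p had 1.63 (1.03 to 2.71), in place 4, on 27 and 57 counts. It passed the minimum only here, with a mean of 10.02 CPM. The median log2 ratio of all miRNAs considered was -0.17 and TMM scaling moved it by 0.23, so the direction of hsa-miR-194-5p turned with the scaling (log2 -0.04 with library totals and 0.19 with TMM).

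**Figure D2:**
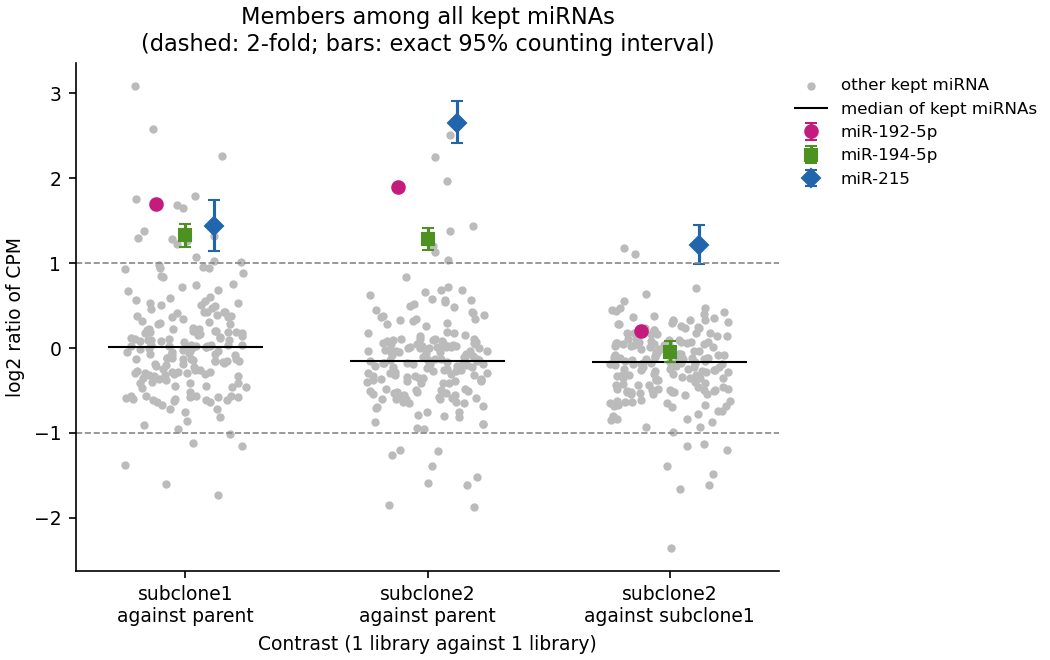
log2 ratio of CPM in the 3 contrasts, each 1 library against 1 library. Grey points are the other miRNAs with a mean of 10 CPM or more, the short black lines are the medians (0.02, -0.15 and -0.17), the dashed lines are 2-fold, and bars on the members are exact 95% intervals for counting error. All 3 members lie above the upper dashed line in both subclones against the parent, and hsa-miR-215 alone of them does so between the subclones.

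Ratios of counts within a library do not depend on how libraries are scaled, so the members were next set against each other. Changes in such a ratio between libraries are given with a 95% Wald interval on the log scale, again for counting error only. The proportions to hsa-miR-215 were first compared between the parent and subclone1. There were 4.96 counts of hsa-miR-194-5p per count of hsa-miR-215 in the parent (interval 4.21 to 5.88) and 4.58 in subclone1 (3.94 to 5.34). The change between them was 0.924-fold (0.741 to 1.15). For hsa-miR-192-5p per hsa-miR-215 the ratios were 851 (733 to 994) and 1020 (891 to 1173), a change of 1.20-fold (0.979 to 1.47). Neither change was beyond counting error.

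In subclone2 both proportions shifted toward hsa-miR-215. The library had 1.92 counts of hsa-miR-194-5p per hsa-miR-215 (1.74 to 2.11), which was 0.386-fold the parent ratio (0.319 to 0.467). hsa-miR-192-5p per hsa-miR-215 came to 503 (465 to 545), 0.591-fold the parent ratio (0.499 to 0.700). Against subclone1 the same ratio was 0.494-fold (0.422 to 0.577). These shifts exceeded counting error, and a spread between cultures of 1 strain could not be measured. Set against the rarer hsa-miR-194-3p, the shift was less clear. Counts of hsa-miR-215 per hsa-miR-194-3p in subclone2 were 2.37-fold the parent ratio (1.51 to 3.70). Against subclone1 they were 1.41-fold (0.868 to 2.28), an interval that included 1.

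The assignment of reads that fit both hsa-miR-215 and hsa-miR-192-5p is not given in the sources used here. For each 1000 counts of hsa-miR-192-5p there were 1.17 counts of hsa-miR-215 in parent cells (1.01 to 1.36), 0.981 in subclone1 (0.853 to 1.12) but 1.99 in subclone2 (1.83 to 2.15). The parent and subclone1 overlapped in this share, and subclone2 lay above both. The part of misassigned reads in the counts of hsa-miR-215 was not tested, so its level is uncertain in each library.

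hsa-miR-192-5p did not keep a fixed proportion with hsa-miR-194-5p, which is cut from both loci, either. There were 172 counts of hsa-miR-192-5p per hsa-miR-194-5p in parent cells (160 to 184), against 222 in subclone1 (209 to 237) and then 263 in subclone2 (248 to 278). The libraries did not overlap, and the ratio was 1.30-fold higher in subclone1 than in the parent (1.18 to 1.42) and 1.53-fold higher in subclone2 (1.40 to 1.67). The ratio to the parent was thus smaller for hsa-miR-194-5p than for hsa-miR-192-5p in both subclones. hsa-miR-192-5p was also compared with hsa-miR-194-3p, so that both strands came from chromosome 11. Counts of hsa-miR-192-5p per hsa-miR-194-3p were 2.01-fold higher in subclone1 than in parent cells (1.23 to 3.31), on 27 and 37 counts of hsa-miR-194-3p. In subclone2 they were 1.40-fold those of parent cells (0.925 to 2.12) and 0.695-fold those of subclone1 (0.439 to 1.10). Both intervals for subclone2 included 1.

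The ratio between the arms of miR-194 showed less. It mixes arm use with the share of each locus, since hsa-miR-194-5p comes from both loci and hsa-miR-194-3p from MIR194-2 alone. hsa-miR-194-5p exceeded hsa-miR-194-3p by 23.1 counts to 1 in parent cells (16.6 to 33.0), 35.8 in subclone1 (24.5 to 54.6) but 21.1 in subclone2 (16.2 to 28.0). Subclone1 had the highest ratio, but its interval overlapped those of the others. The change from subclone1 to subclone2 was 0.588-fold (0.369 to 0.937) and rested on 27 and 57 counts of the rarer strand. For miR-192 the 5p strand had 29283 counts per 3p count in parent cells, 43026 in subclone1 and 45072 in subclone2, on 5 to 7 counts of the 3p strand. The change of this ratio was 1.54-fold in subclone2 against the parent, with an interval of 0.489 to 4.85, so that no shift of arm use was detectable.

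**Figure D3:**
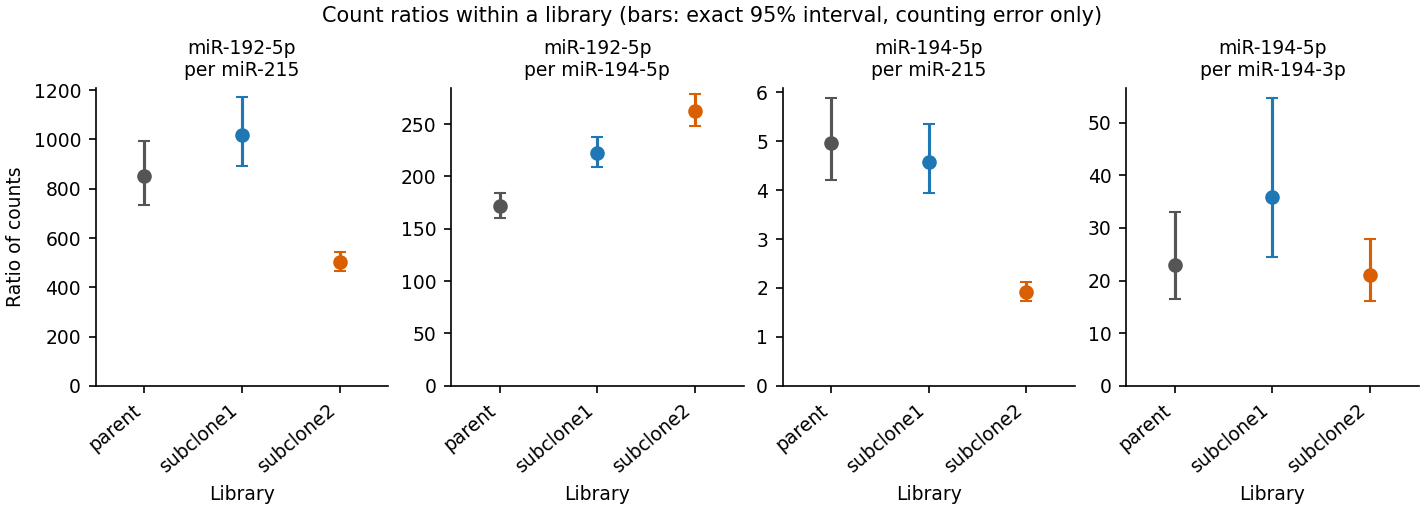
Ratios of counts between family members within each library (linear axes from 0, 1 point per library, bars are exact 95% intervals for counting error). hsa-miR-192-5p per hsa-miR-215 is lowest in subclone2, at 503, and so is hsa-miR-194-5p per hsa-miR-215, at 1.92, while hsa-miR-192-5p per hsa-miR-194-5p lies at 172, 222 and 263.

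The surroundings of both loci were then considered, using all miRNA hairpins within 1 Mb of MIR192 or MIR215 in GENCODE release 29 (GRCh38). On chromosome 1 there was 1 such hairpin, MIR664A (220200538 to 220200619, minus strand), 82.6 kb from MIR215. Its strand hsa-miR-664-5p, matched through the older name of the gene, had 244 counts in parent cells, 113 in subclone1 and 152 in subclone2. These were 30.9 CPM (27.1 to 35.0), 31.6 CPM (26.1 to 38.0) and 33.3 CPM (28.2 to 39.0), and all intervals overlapped. Its log2 ratio against the parent was 0.04 in subclone1 (interval -0.30 to 0.36) and 0.11 in subclone2 (-0.19 to 0.41), where hsa-miR-215 had 1.44 and 2.65. The other arm, hsa-miR-664-3p, lay below the minimum level, with 11, 14 and 13 counts (1.39, 3.92 and 2.85 CPM). On these few counts its log2 ratio against the parent was 1.48 in subclone1 (interval 0.25 to 2.78) and 1.02 in subclone2 (-0.24 to 2.33). On chromosome 11, 4 of 9 neighbouring hairpins had names in the tables, and the 2 that were detected, hsa-miR-4690-3p and hsa-miR-4489, together held 4 counts in parent cells, 2 in subclone1 and 3 in subclone2. No difference was detectable there at this depth.

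Next, the members were set beside miRNAs that share their background, in lists of all arms. The p53-linked list (miR-34a, miR-34b, miR-34c, miR-143, miR-145, miR-107, miR-15a, miR-16 and miR-605) had 17 names, of which 5 passed the minimum level. None was called in subclone1 and 1 was called lower in subclone2, hsa-miR-34a-5p, a direct transcriptional target of p53. It had 255 counts in parent cells, 59 in subclone1 and 48 in subclone2, or 32.3 CPM (28.4 to 36.5), 16.5 CPM (12.6 to 21.3) and 10.5 CPM (7.75 to 13.9). The parent lay above both subclones, with a log2 ratio of -0.96 in subclone1 (interval -1.40 to -0.55) and -1.61 in subclone2 (-2.10 to -1.17). Calls in this direction were made for 4.81% of all miRNAs in subclone2.

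The other 4 p53-linked names that passed the minimum stayed within 2-fold. Of the names below it, hsa-miR-34a-3p had 20, 12 and 9 counts (2.53 CPM in parent cells, 3.36 in subclone1 and 1.97 in subclone2). Its log2 ratio against the parent was 0.43 in subclone1 (interval -0.76 to 1.51) and -0.32 in subclone2 (-1.68 to 0.84). hsa-miR-143-3p had 8 counts in parent cells and 1 in each subclone, and the intervals of its ratios to the parent included 1. hsa-miR-107, whose host gene PANK1 is a p53 target, was abundant and lay at 8106 CPM in parent cells, 9073 in subclone1 and 7939 in subclone2. hsa-miR-16-5p, whose processing p53 promotes, had 314, 262 and 221 CPM. hsa-miR-15a-5p had 29.7, 23.2 and 21.0 CPM, and hsa-miR-16-2-3p had 25.7, 14.6 and 19.7 CPM. The median log2 ratio of the 5 names was -0.35 in subclone1 and -0.50 in subclone2, beside 0.02 and -0.15 for all miRNAs considered.

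The hepatocyte-enriched list (miR-122, miR-885, miR-148a, miR-101 and miR-22) had 10 names, of which 3 passed the minimum and none was called in any contrast. hsa-miR-101-3p, a repressor of the histone methyltransferase EZH2, had 1230 CPM in parent cells, 1091 in subclone1 and 979 in subclone2. hsa-miR-22-3p had 232, 270 and 226 CPM, and its other arm hsa-miR-22-5p had 31.6, 27.7 and 24.7 CPM. These levels moved little beside the 2.44-fold to 3.73-fold ratios of hsa-miR-194-5p and hsa-miR-192-5p in subclone2. The median log2 ratio of the list was -0.17 in subclone1 and -0.33 in subclone2. Below the minimum, hsa-miR-148a-3p had 27 counts (3.42 CPM) in parent cells, 24 (6.72 CPM) in subclone1 and 25 (5.47 CPM) in subclone2. Its log2 ratio against the parent was 0.98 in subclone1 (interval 0.12 to 1.82) and 0.68 in subclone2 (-0.17 to 1.52), whereas the low hsa-miR-122-5p had -0.31 (-1.17 to 0.45) and -0.74 (-1.63 to 0.03). Both arms of miR-885, a further hepatocyte miRNA, had 0 counts in every library, which allows up to 0.380 CPM in parent cells, 0.840 in subclone1 and 0.657 in subclone2 (3 counts of the total).

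The epithelial list (miR-200a, miR-200b, miR-200c, miR-141, miR-429 and miR-205) holds miRNAs that repress ZEB1 and ZEB2. Of its 11 names, 3 passed the minimum. hsa-miR-200a-3p had 220 counts in parent cells, 160 in subclone1 and 279 in subclone2, or 27.8 CPM (24.3 to 31.8), 44.8 CPM (38.1 to 52.3) and 61.1 CPM (54.1 to 68.7). The libraries stood apart in the same order as for hsa-miR-215. It was the 1 name called, higher in subclone2 where its log2 ratio was 1.13, with 0.87 to 1.40 as the interval, beside 5.88% of all miRNAs called in this direction. Of the others, hsa-miR-200b-3p had 16.5, 24.1 and 26.1 CPM, and hsa-miR-200c-3p had 26.6, 37.8 and 38.1 CPM, with the parent lowest for both. The median log2 ratio of the 3 names was 0.55 in subclone1 and 0.66 in subclone2. Below the minimum, hsa-miR-200b-5p had 4.05, 8.40 and 9.19 CPM and hsa-miR-429 had 2.40, 3.36 and 3.72 CPM. The log2 ratio of hsa-miR-200b-5p was 1.05 (interval 0.28 to 1.82) in subclone1 and 1.18 (0.48 to 1.89) in subclone2. hsa-miR-141-3p had 18, 4 and 15 counts (2.28, 1.12 and 3.28 CPM) and was lowest in subclone1. The intervals of its ratios to the parent included 1.

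**Figure D4:**
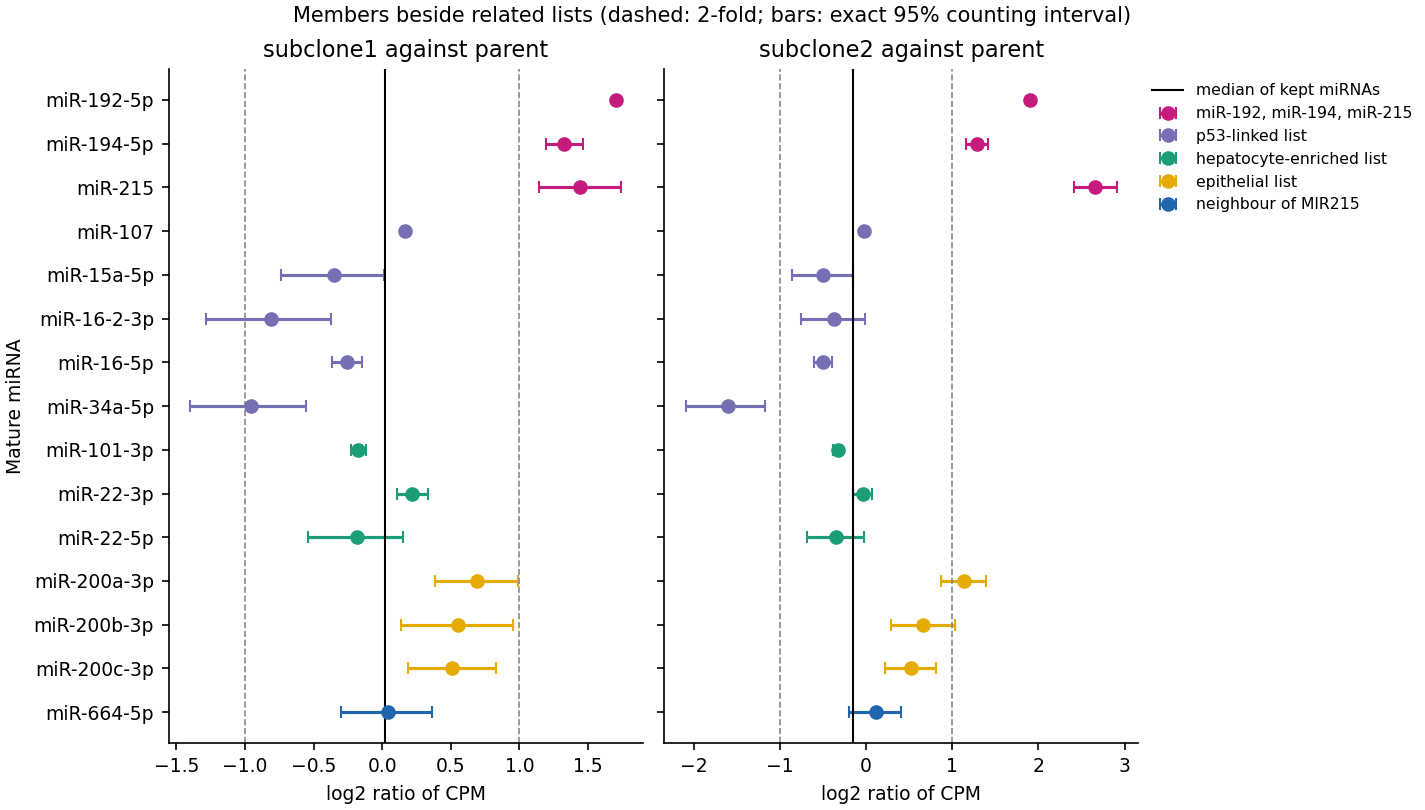
log2 ratio of CPM against the parent for family members, list members and the neighbour of MIR215 that passed the minimum level. Points are single ratios of 1 library to 1 library, bars are exact 95% intervals for counting error, dashed lines are 2-fold and the black line is the median of all miRNAs considered. The 3 members lie to the right of the 2-fold line in both panels, hsa-miR-34a-5p lies beyond the left line in subclone2, and hsa-miR-664-5p has 0.04 and 0.11.

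Finally, the miRNAs with the most similar pattern were sought among the 192 whose mean over the libraries reached 10 CPM. Likeness was the Euclidean distance between the pair of log2 ratios against the parent, over only 3 libraries that share the parent, so it is a description. For hsa-miR-192-5p the nearest name outside the family was hsa-miR-10a-5p, a miRNA of the HOXB cluster, at a distance of 0.11, where the median distance to all was 2.69. It had 178 CPM in parent cells, 613 in subclone1 and 696 in subclone2. hsa-miR-1269b (0.66) and hsa-miR-146a-5p (0.72) followed. Within the family, hsa-miR-194-5p lay at 0.72 and hsa-miR-215 at 0.80 from hsa-miR-192-5p.

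For hsa-miR-194-5p the nearest were hsa-miR-1269b (0.18), hsa-miR-2682-5p (0.25) and hsa-miR-532-3p (0.31). hsa-miR-1269b had 29.5 CPM in parent cells, 69.2 in subclone1 and 80.1 in subclone2. For hsa-miR-215 the closest was hsa-miR-146a-5p at 0.55, where the median distance to all was 3.19. hsa-miR-146a-5p had 14.0 CPM in parent cells, 29.4 in subclone1 and 66.8 in subclone2. Between the subclones it was 2.26-fold higher in subclone2 (interval 1.81 to 2.86), beside 2.32-fold for hsa-miR-215 (1.98 to 2.73). Next came hsa-miR-10a-5p (0.77) and then hsa-miR-675-5p (0.83), which is cut from the imprinted RNA H19. In parent cells hsa-miR-532-3p had 9.62 CPM and hsa-miR-675-5p had 5.69 CPM, so both reached the minimum only through the subclones. Names this low in the parent could enter only if higher in a subclone. The distance between hsa-miR-194-5p and hsa-miR-215 was 1.37, the largest within the family.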

How the data were processed

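Per the labels, RNA from cultured cells was extracted with Trizol and 1 ug entered the Illumina TruSeq Small RNA kit. The authors deposited an unscaled read count per mature miRNA name, with 1 library per strain. The submitters' processing notes name CASAVA 1.4 and hg19 without a role. Trimming, aligner, mismatch limit, miRBase release and the treatment of shared reads are not given in the sources used here.

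Counts were scaled to the library total. For log2 ratios, 0.5 counts were added in each library, and miRNAs with a mean under 10 CPM in the libraries set side by side were left out. Intervals are exact at 95% (Clopper-Pearson, scipy 1.17.1), for a ratio conditional on the summed count of both libraries. No test was possible. Alternatives were TMM (edgeR 4.0.16), median-of-ratios (DESeq2 1.42.0), a total that leaves out the top 10 names of each library (12 in all) or the family, 5 counts added, other minimum levels, and summed arms or seeds. The procedure was tested on simulated counts that held counting error alone. That run cannot show how calls fare under spread between cultures or bias of library preparation.

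The members and lists were chosen with earlier results of these data known. Named were all family names, names next to them in rank, all names with a shared seed, hairpins within 1 Mb, the 3 nearest patterns per member, and list members that passed the minimum level. hsa-miR-122-5p, miR-885, hsa-miR-148a-3p, hsa-miR-143-3p, hsa-miR-34a-3p, hsa-miR-200b-5p, hsa-miR-429 and hsa-miR-141-3p fall outside this rule and were added after their values were seen. Sequences are from RefSeq (GRCh38.p14) and annotation from GENCODE 29. All 5 family names were matched. Coordinates are those of these references and not of the count tables.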

Additional observations from a re-analysis of the deposited data

How the results depend on the processing

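No paired analysis was possible because there is 1 library per strain, which also means that none could be left out. Of 54 alternative values of the member ratios, 47 kept their call or remained inside the counting interval. All 41 alternative values of the 7 called ratios kept their call, with log2 ranges of 1.63 to 1.76 (hsa-miR-192-5p), 1.25 to 1.39 (hsa-miR-194-5p) and 1.37 to 1.50 (hsa-miR-215) in subclone1 against the parent, 1.90 to 2.07, 1.28 to 1.45 and 2.63 to 2.82 in subclone2 against the parent, and 1.19 to 1.45 for hsa-miR-215 between the subclones. Some of the 41 could hardly differ. With 5 counts added, for example, hsa-miR-192-5p in subclone1 against the parent had 1.70118, against 1.70119. The 7 values that moved belong to the uncalled ratios between the subclones. hsa-miR-192-5p had a log2 ratio of 0.43 under TMM scaling, 0.41 under median-of-ratios scaling, 0.34 with the total without the 10 most abundant miRNAs and 0.21 with the total without the family, against 0.20. hsa-miR-194-5p changed sign, to 0.19, 0.17 and 0.10 under the first 3 of these, against -0.04, and no direction is drawn from it. With no minimum level the number of miRNAs called was 67, 75 and 33 for subclone1 against the parent, subclone2 against the parent and subclone2 against subclone1 in turn, and with a minimum of 100 CPM it was 7, 5 and 2, against 25, 20 and 11. The other alternatives left these numbers within 1.5 times. hsa-miR-215, with a mean under 100 CPM in each contrast, is not considered at the higher minimum. Depth limits the 3p strands most, and a spread between cultures of 1 strain was not measurable for any value.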
